A study of Rattus norvegicus with 6 samples.

Results

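Levels of 7 genes of the axonal cytoskeleton and of neurons were followed in the trigeminal nerve of 3 rat strains. They were the neurofilament genes Nefh, Nefm and Nefl, the peripherin gene Prph, Stmn2, Map1a and Uchl1. Members were chosen by the gene symbol that the platform annotation gives a probe, and all 7, of 13316 gene symbols with a probe, had 1 probe each among the 21791 probes of the signal table. Every member was detected on all 6 arrays, so none was lost to a filter on dim probes. The samples were 6 pools of nerves from untreated inbred rats aged 85 days, 1 male and 1 female pool each of BDIX, of BDIV and of BDIX.BDIV-Mss4a. The last strain carries the BDIV segment Mss4a, named for resistance to malignant schwannoma, on the BDIX background, and is called the congenic here. Each pool was hybridised to 1 Illumina rat expression BeadChip, and the sources used here do not give the number of animals per pool. BDIX rats develop schwannomas of this nerve after ethylnitrosourea and BDIV rats resist them, but no animal in these groups received a carcinogen. In the reference gene table (GRCr8) 0 of the 7 genes lie on chromosome 6, the chromosome on which the Mss4 locus was mapped.

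Neurofilaments are the intermediate filaments of the axon, assembled from a light, a medium and a heavy chain around a core to which the light chain is essential. The medium and heavy chains carry long tails, rich in lysine-serine-proline repeats that kinases phosphorylate, and filament number is linked to axon calibre and conduction speed. Microtubules run beside them as tracks for transport. The trigeminal nerve carries the sensory axons of the face, whose cell bodies lie in the trigeminal ganglion. Most neuronal transcripts sit in those cell bodies and a minority in the axon itself. Schwann cells, fibroblasts, vessel cells and blood cells supply the remaining RNA of a nerve.

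Promoter windows of 250 bases before to 50 bases after the gene start were at hand for 3 of the 7 members, and all 3 are shown. They come from RefSeq on build GRCr8 and lie at chr7:132097039-132097338 on the plus strand for Prph, at chr3:128722445-128722744 on the plus strand for Map1a, and at chr14:41849368-41849667 on the minus strand for Uchl1. Capitals mark matches, on either strand, to the TATA box letters TATAAA, the GC box letters GGGCGG and the CAAT box letters CCAAT.
Prph: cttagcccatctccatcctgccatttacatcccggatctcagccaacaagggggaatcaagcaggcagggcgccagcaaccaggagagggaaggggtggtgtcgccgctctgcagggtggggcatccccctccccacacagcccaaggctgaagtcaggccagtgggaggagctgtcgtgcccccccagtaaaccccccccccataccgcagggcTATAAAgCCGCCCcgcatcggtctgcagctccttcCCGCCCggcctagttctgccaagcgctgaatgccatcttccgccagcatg
Map1a: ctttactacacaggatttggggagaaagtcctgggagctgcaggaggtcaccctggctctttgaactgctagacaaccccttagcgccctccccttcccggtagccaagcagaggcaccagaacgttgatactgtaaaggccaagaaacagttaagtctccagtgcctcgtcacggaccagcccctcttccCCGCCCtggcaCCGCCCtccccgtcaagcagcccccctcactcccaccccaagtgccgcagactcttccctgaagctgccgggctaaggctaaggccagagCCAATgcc
Uchl1: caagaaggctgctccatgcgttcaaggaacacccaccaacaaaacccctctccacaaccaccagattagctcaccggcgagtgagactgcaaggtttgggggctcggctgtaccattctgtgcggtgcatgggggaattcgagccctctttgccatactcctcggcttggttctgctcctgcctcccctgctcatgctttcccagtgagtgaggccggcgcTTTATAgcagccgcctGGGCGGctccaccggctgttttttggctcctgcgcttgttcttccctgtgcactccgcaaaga
Prph and Uchl1 each held 1 match to TATAAA, which 14.2% of all 33469 promoter windows held, and Map1a held 0. GGGCGG was matched 2 times in Prph, 2 times in Map1a and 1 time in Uchl1, against 33.1% of windows with at least 1 match. CCAAT was matched 1 time in Map1a, against 37.5% of windows. The cAMP response element TGACGTCA and the letters CAGCACC and GGACAG, taken from the left and right parts of the element bound by the neuronal repressor REST, were not found in these 3 windows and were in 1.83%, 6.78% and 21.7% of all windows. The windows had a GC content of 64.3% (Prph), 60.3% (Map1a) and 58.7% (Uchl1), above the median of 51.7%. A match is a description of these letters and not evidence that a factor binds there. In the gene order of GRCr8, Nefl and Nefm are neighbours with 0 protein-coding genes between them.

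Values below are log2 intensities after background correction, an added offset of 16 and quantile normalisation, unless they are called signal. Arrays differed in brightness, with the upper quartile of the signal at 2.58 and 2.63 times the background on the congenic arrays and between 5.33 and 6.46 times on the other 4. Tests are from a limma fit over all 6 arrays with strain and sex as terms, run on 10484 probes, and a gene is called where its Benjamini-Hochberg adjusted p lies under 0.05. A strain is thus compared on 1 male and 1 female pool. The p-values are measured against a spread that limma blends from 2 parts. One is the probe's own scatter over the 6 pools around the sum of a strain and a sex effect, with 2 residual degrees of freedom. The other is the typical scatter of probes of like intensity, with 5.23 prior degrees of freedom. No strain and sex had a repeat pool. No slide or scan label was at hand, so strain cannot be told apart from a hybridisation batch.

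Setting BDIV against BDIX asks whether axonal genes differ between a resistant and a susceptible strain before any carcinogen. In BDIV 6 of the 7 members were higher, by 0.82 to 1.74 on the log2 scale, and Nefl was not called. The member median was 1.02, against -0.03 over all probes tested. Of all 10484 probes 27.3% were called between these strains, 13.7% as higher and 13.6% as lower. The BDIV and BDIX arrays did not overlap for the same 6 members, while 33.0% of all probes had both BDIV arrays above both BDIX arrays and 37.7% had both below. In these 6 members both BDIV pools also lay above both congenic pools, as in 23.8% of all probes. Fewer neurons or axons in a pool and less RNA per neuron cannot be told apart in bulk RNA.

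Nefh encodes the heavy neurofilament chain, the last of the triplet to be expressed as axons mature. Its log2 intensity was 9.98 in the BDIX male and 10.09 in the BDIX female pool, 11.73 and 11.49 in BDIV, and 10.01 and 8.81 in the congenic (male, then female, here and below). Both BDIV pools lay above the other 4, and the congenic female lay lowest. BDIV exceeded BDIX by 1.57 ± 0.30 (log2 ± SE, 2 pools per strain, limma adjusted p = 0.0117), a 2.97-fold difference. Of the 7 members Nefh had the widest range over the 6 arrays, 2.92 log2 units.

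The medium chain gene Nefm read 11.46 and 11.57 in BDIX, 12.53 and 12.32 in BDIV, and 11.54 and 11.12 in the congenic. Again both BDIV pools were highest. The difference between BDIV and BDIX was 0.91 ± 0.20 (limma adjusted p = 0.0164), smaller than that of Nefh in both sexes (1.07 against 1.75 in males and 0.75 against 1.39 in females).

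Nefl, the light chain without which neurofilaments do not assemble, stood apart from the other members in its values. It read 14.46 and 14.84 in BDIX, 14.44 and 14.46 in BDIV, and 14.88 and 14.76 in the congenic, a range of only 0.44. BDIV and BDIX pools overlapped, and the difference was -0.20 ± 0.22 (limma adjusted p = 0.542). Nefl was among the brightest probes of every array, with 8 to 40 probes brighter and a signal at 51.3% to 82.0% of the highest on its array. Under quantile normalisation the value of a probe is set by its rank on the array. Nefl read 14.88 with 8 probes brighter (congenic male) and 14.44 with 40 brighter (BDIV male). Its signal was 25447 and 28518 in BDIX, 26585 and 27227 in BDIV, and 31360 and 24352 in the congenic. With other scaling BDIV minus BDIX was also not called, at -0.24 (median scaling), -0.59 (cyclic loess) and -0.45 (authors' processed values). In the authors' values the congenic exceeded BDIX by 1.11 (limma adjusted p = 0.0649) and BDIV by 1.56 (adjusted p = 0.0154). The part of the normalisation in the narrow range was not tested. The sources used here do not give the ceiling of the scanner.

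Prph encodes peripherin, an intermediate filament of peripheral neurons that co-assembles with the neurofilament chains. It read 13.75 and 14.10 in BDIX, 14.84 and 14.64 in BDIV, and 14.16 and 13.72 in the congenic. The BDIX and congenic pools overlapped and both BDIV pools were above them. BDIV was higher by 0.82 ± 0.25 (limma adjusted p = 0.0465), the weakest of the 6 calls. This call was lost under median scaling (0.66, adjusted p = 0.0589), under cyclic loess (0.35, adjusted p = 0.322) and in the authors' processed values (0.46, adjusted p = 0.255). With the value at 0.82 it was also lost when all probes were tested (adjusted p = 0.101) and without an intensity trend (adjusted p of 0.05 after rounding). On the BDIV arrays the Prph signal reached 91.1% and 88.2% of the highest signal, against 44.1% and 45.9% on the BDIX arrays.

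Stmn2 encodes a stathmin of growth cones that binds tubulin and destabilises microtubules during axon growth and repair. Its values were 13.07 and 13.36 in BDIX, 14.22 and 14.26 in BDIV, and 12.52 and 12.35 in the congenic. The 3 strains did not overlap, in the order BDIV, BDIX, congenic in both sexes. BDIV was above BDIX by 1.02 ± 0.20 (limma adjusted p = 0.0124). The BDIV signals were at 75.0% and 76.8% of the highest on their arrays.

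Map1a, a microtubule-associated protein that stabilises microtubules in mature neurons, was the dimmest member. It read 6.79 and 6.44 in BDIX, 8.33 and 8.40 in BDIV, and 8.08 and 7.41 in the congenic. The 3 strains did not overlap, with BDIX lowest. The rise in BDIV over BDIX, 1.74 ± 0.25 (limma adjusted p = 0.00549), was the largest of the 7 at the offset and scaling used. Uchl1 exceeded it under median scaling (1.95 against 1.85), without background correction (1.67 against 1.33) and with an offset of 50 (1.68 against 1.46), and in the last 2 settings Nefh did too (1.52 and 1.54). The BDIX signals of 166 and 139 stood over background means of 63.5 and 57.9, so the added offset makes the log2 difference smaller than that of the signal over background.

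Uchl1 encodes a ubiquitin hydrolase so abundant in neurons that its protein, PGP9.5, serves as a stain for nerve fibres. It read 11.58 and 11.31 in BDIX, 13.11 and 13.15 in BDIV, and 12.34 and 11.65 in the congenic, with no overlap between BDIX and BDIV. BDIV exceeded BDIX by 1.69 ± 0.22 (limma adjusted p = 0.00465), a 3.22-fold difference. Among the members Uchl1 alone kept its call whichever of the 6 arrays was left out.

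**Figure D1:**
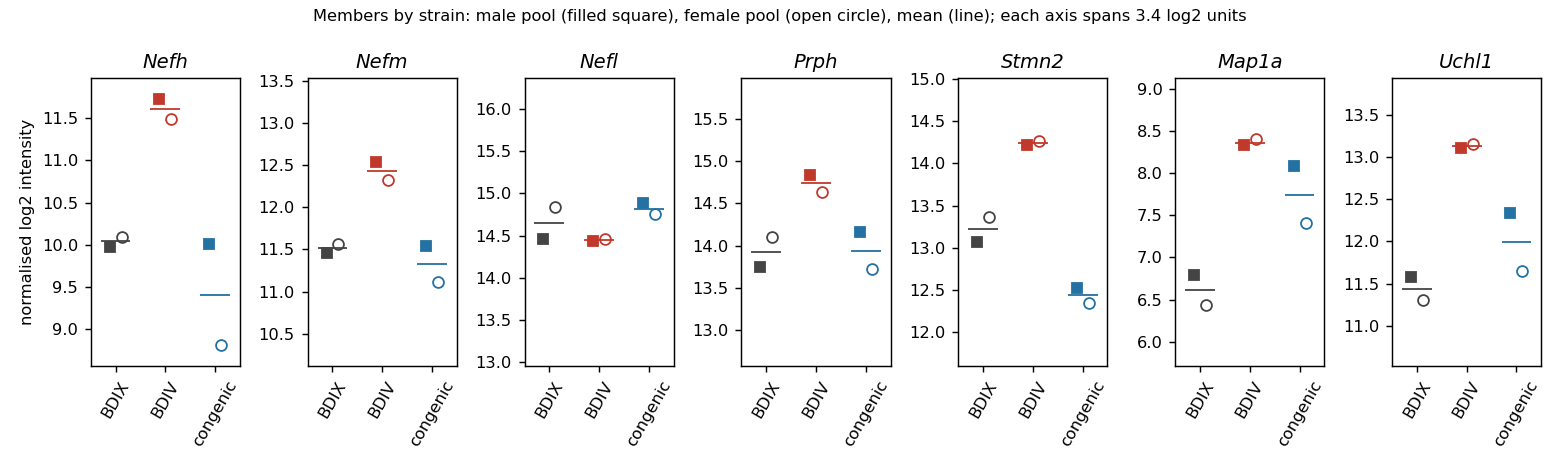
Normalised log2 intensity (y axis) of each member in the 6 pools, by strain (x axis), with male pools as filled squares, female pools as open circles and strain means as lines. Both BDIV pools lie above the other 4 for Nefh, Nefm, Prph, Stmn2, Map1a and Uchl1, while Nefl spans 0.44 over all pools.

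The count of members called between BDIV and BDIX rested on the BDIV arrays. It was 3 without the BDIV male array, where Nefm (adjusted p = 0.0931), Prph (0.208) and Stmn2 (0.0669) were not called, and 1 without the BDIV female array, where Nefh (0.057), Nefm (0.13), Prph (0.193), Stmn2 (0.103) and Map1a (0.056) were not called. All probes called fell to 1482 and 486 in these fits. Leaving out either congenic array took away the call of Prph only (0.0891 without the male and 0.0911 without the female). None of the 6 differences changed sign when any array was left out. Without the BDIV male and the BDIV female array, in this order, they were 1.72 and 1.41 for Nefh and 0.88 and 0.92 for Nefm. Prph had 0.80 and 0.99, Stmn2 1.06 and 1.08, Map1a 2.01 and 1.44, and Uchl1 1.96 and 1.42. In both fits, which hold a single BDIV pool, the SE of each was larger than with all 6 arrays.

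Other neuronal genes were mostly higher in BDIV as well, in a comparison where 13.7% of all probes were called higher. The lists, like the members, were chosen with earlier results of these data known. Of 18 other axonal cytoskeleton genes tested, 13 were higher in BDIV than in BDIX and 1 was lower (list median 1.23). By brightness the named ones were Stmn3, a neuronal stathmin (1.27 ± 0.20, limma adjusted p = 0.00698), Gap43, a growth cone protein (1.03 ± 0.21, adjusted p = 0.0143), and Stmn1, the stathmin found in many cell types, which was the lower one (-0.81 ± 0.20, adjusted p = 0.0263). Of 18 other neuronal markers 13 were higher and 0 lower (median 0.84), among them Sncg, the gamma-synuclein gene (0.79 ± 0.21, adjusted p = 0.0339). Rtn1, a reticulon of neurons (0.76 ± 0.25, adjusted p = 0.0584), and Ndrg4 (0.45 ± 0.26, adjusted p = 0.223) were not called. Of 8 genes typical of sensory neuron cell bodies 6 were higher and 0 lower (median 1.12), including Tac1, the substance P precursor (1.14 ± 0.18, adjusted p = 0.00682), and the sodium channel genes of pain fibres Scn10a (1.11 ± 0.22, adjusted p = 0.0123) and Scn11a (1.14 ± 0.25, adjusted p = 0.0179). Stmn4 and Dpysl2 of the first list, Sncb and Nsg2 of the second, and Calca and Scn9a of the third were detected on no array. Without the BDIV female array 3 of 18, 3 of 18 and 0 of 8 were called in these lists, and without the BDIV male array 11, 7 and 4, with list medians between 0.73 and 1.35 in these fits.

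Genes that modify, carry or degrade neurofilaments gave 1 call among 7 tested between BDIV and BDIX. This was Cdk5, a kinase of the neurofilament tails (0.99 ± 0.18, limma adjusted p = 0.0106), and the list median was 0.59. Dync1h1, the heavy chain of the dynein motor (0.25 ± 0.22, adjusted p = 0.436), and Stub1, a ubiquitin ligase that acts with chaperones (0.47 ± 0.18, adjusted p = 0.0893), were not called. The other deubiquitinases, relatives of Uchl1 in function, gave 0 of 4 called (median 0.19), with Usp14 at 0.55 ± 0.21, Usp7 at -0.50 ± 0.18 and Usp5 at 0.20 ± 0.21 (adjusted p = 0.0923, 0.0736 and 0.509).

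**Figure D2:**
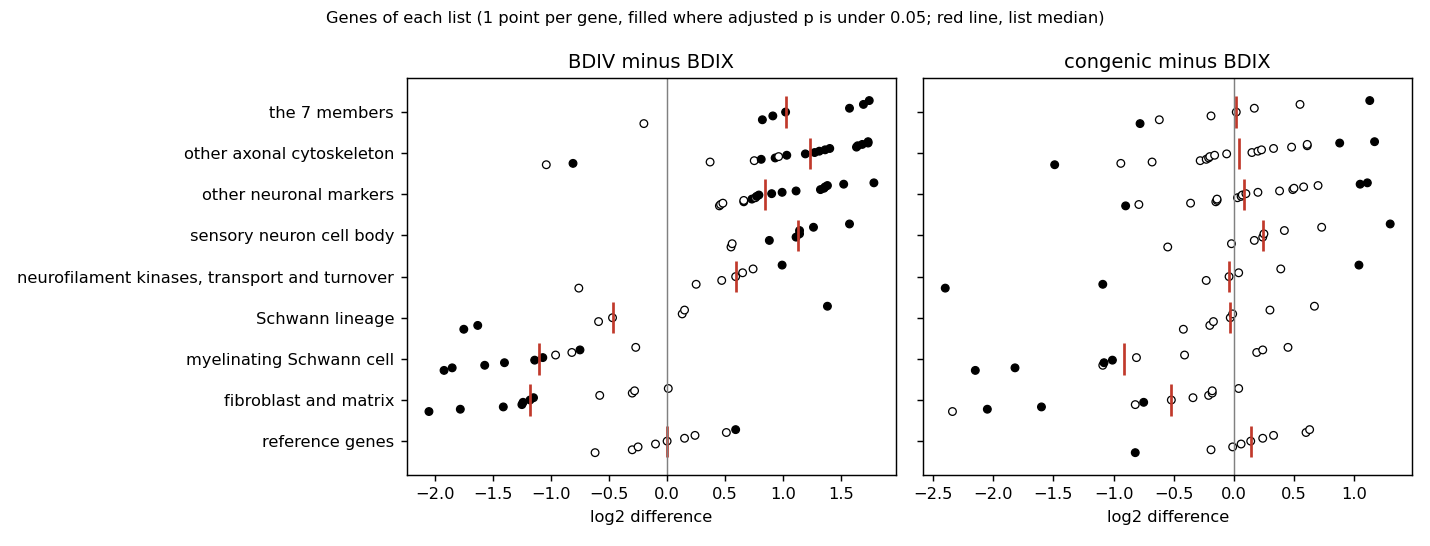
Log2 difference (x axis) of each tested gene in 9 gene groups (y axis), BDIV minus BDIX on the left and congenic minus BDIX on the right. Points are genes, filled where the adjusted p is under 0.05, and red lines are list medians, which for BDIV minus BDIX lie at 1.02 for the members and at -1.11 for myelinating Schwann cell genes.

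Markers of other cells differed between the same pools, in a comparison where 13.6% of all probes were called lower. Of 10 myelinating Schwann cell genes 7 were lower and 0 higher in BDIV (median -1.11), and their mean log2 intensity was 11.82 and 12.17 in BDIX, 10.94 and 10.69 in BDIV, and 11.15 and 11.34 in the congenic. The 3 brightest were Mal, a myelin membrane protein gene (-1.07 ± 0.26, limma adjusted p = 0.0228), Pmp22, a gene of compact peripheral myelin, which was not called (-0.27 ± 0.21, adjusted p = 0.379), and Cnp, an enzyme of non-compact myelin (-1.85 ± 0.20, adjusted p = 0.00288). Of 11 fibroblast and matrix genes 7 were lower (median -1.18), with list means of 11.40 and 11.23 in BDIX and 10.32 and 10.27 in BDIV. Without the BDIV female array 2 of 10 myelinating Schwann cell genes and 2 of 11 fibroblast genes were called lower. Of 7 erythrocyte genes 6 were lower (median -2.84), with list means of 10.67 and 10.11 in BDIX and 7.76 and 7.50 in BDIV. The Schwann lineage list had 1 of 7 genes higher and 2 lower. Of 9 reference genes 1 was called, higher, and their list median was 0.00. The part of these markers in the members' differences was not tested.

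Markers of tissue next to the nerve were checked for the same reason. Of 10 brain neuron genes 9 had a probe and 5 of these (Gad2, Neurod2, Neurod6, Camk2a, Slc6a5) were detected on no array. The 4 tested had list means between 6.25 and 7.31, with 2 higher and 2 lower in BDIV than in BDIX, and 0 higher and 1 lower without the BDIV female array. Oligodendrocyte and astrocyte genes had 1 of 7 called in BDIV against BDIX, Hapln2, with list means from 7.40 in the BDIX female to 10.33 in the congenic female pool and with Opalin and Olig2 detected on no array. The list median was 1.07, and both it and this count turned on single arrays. The median was 2.44 without the BDIX male array, 1.10 without either congenic array and -0.41 without the BDIX female array. Pituitary genes had 3 tested, with list means of 8.80 and 8.62 in BDIX, 5.50 and 6.69 in BDIV, and 6.64 and 9.90 in the congenic, and Lhb, Cga, Fshb and Pou1f1 were detected on no array. Of the 3 the prolactin gene Prl was called lower in BDIV than in BDIX (-4.10 ± 0.71, limma adjusted p = 0.00862). Whether the others were called turned on single arrays. Skeletal muscle list means ran from 5.95 to 7.79, with Myh4, Myh2 and Tnni2 detected on no array. Of 3 muscle genes tested 1 was called between BDIV and BDIX, Acta1, the skeletal actin gene, higher in BDIV (2.30 ± 0.32, limma adjusted p = 0.00501). The part of these tissues in the members' values was not tested.

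The comparison of the congenic with BDIX asks what the introgressed segment changes. Of the 7 members 1 was higher and 1 lower in the congenic, and 5 were not called. The member median was 0.02, against 0.00 over all probes, of which 11.9% were called, 4.29% as higher and 7.57% as lower. The pools of these strains did not overlap for Map1a and Uchl1, higher in the congenic as 29.8% of all probes were, and for Stmn2, lower as 29.2% were. Map1a was higher by 1.13 ± 0.25 (limma adjusted p = 0.0364), with 1.29 in males and 0.97 in females. Stmn2 was lower, with a difference of -0.78 ± 0.20 (adjusted p = 0.0486), with -0.55 in males and -1.01 in females. Uchl1 was 0.55 ± 0.22 (adjusted p = 0.127), and its congenic pools lay above the BDIX pools by a gap of 0.07.

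The 4 intermediate filament genes were not called between the congenic and BDIX, and their pools overlapped. Nefh had a difference of -0.62 ± 0.30 (limma adjusted p = 0.191), Nefm of -0.19 ± 0.20 (0.531), Nefl of 0.17 ± 0.22 (0.619) and Prph of 0.02 ± 0.25 (0.963). For Nefh the male pools differed by 0.03 and the female pools by -1.28. Nefh was called lower without the congenic male array (-1.19, adjusted p = 0.049) and without the BDIX male array (-1.04, adjusted p = 0.025).

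Neither call was stable over the arrays. Map1a was lost without the congenic male array (0.88, adjusted p = 0.151). Stmn2 was lost without the congenic male (-0.93, adjusted p = 0.164), the congenic female (-0.61, 0.398), the BDIV male (-0.80, 0.0817) or the BDIV female array (-0.79, 0.0857). Under median scaling the median of all probes moved to -0.52 for this contrast. On that scale Nefh (-1.28, adjusted p = 0.0119), Nefm (-0.74, 0.0165) and Stmn2 (-1.28, 0.00233) were called lower and Map1a was not called (0.41, 0.228). Relative to that shift the differences were -0.76 for Nefh, -0.22 for Nefm, -0.76 for Stmn2 and 0.93 for Map1a.

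Related lists gave calls in both directions between the congenic and BDIX, where 11.9% of all probes were called. Of 18 axonal cytoskeleton genes 2 were higher, Gap43 (0.88 ± 0.21, limma adjusted p = 0.0428) and the axonal spectrin gene Sptbn4 (1.17 ± 0.22, adjusted p = 0.0255), and 1 was lower, Stmn1 (-1.49 ± 0.20, adjusted p = 0.0133). Of 18 neuronal markers Rtn1 (1.05 ± 0.25, adjusted p = 0.0415) and the neuronal nuclear protein gene Rbfox3 (1.11 ± 0.22, adjusted p = 0.0293) were higher and the secretogranin gene Scg2 was lower (-0.90 ± 0.21, adjusted p = 0.0393). Of 8 cell body genes 1 was higher, Drgx, a transcription factor of sensory neurons (1.30 ± 0.28, adjusted p = 0.0354). Among 7 genes that act on neurofilaments the kinesin gene Kif5b (-2.40 ± 0.29, adjusted p = 0.00994) and the kinase gene Gsk3b (-1.09 ± 0.28, adjusted p = 0.0475) were lower and Stub1 was higher (1.04 ± 0.18, adjusted p = 0.0215). Sptbn4, Rbfox3, Scg2, Drgx, Kif5b and Gsk3b were named after their values were seen. The list medians were 0.04, 0.08, 0.24 and -0.04 in this order. The calls of the first 3 lists turned on single arrays, and those as higher were lost without the congenic male array. With all probes tested the axonal list had 1 higher and 1 lower call and the neuronal markers had 0.

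Markers of other cells differed in the same pools. In the congenic 4 of 10 myelinating Schwann cell genes (median -0.91) and 3 of 11 fibroblast and matrix genes (median -0.52) were lower than in BDIX. Of 7 erythrocyte genes 3 were lower (median -0.51), and 0 were higher in each of these 3 lists. Of all probes 7.57% were called lower and 4.29% higher. Of 3 muscle genes 2 were higher, Acta1 (1.82 ± 0.32, limma adjusted p = 0.0224) and the troponin gene Tnnc2 (1.88 ± 0.30, adjusted p = 0.0192). Of 4 brain neuron genes 2 were higher (median 0.74). Of 7 oligodendrocyte and astrocyte genes 1 was higher (median 1.25), a count that was 6 without the congenic male, 7 without the BDIX male and 0 without the congenic female array. The part of these markers in the members' values was not tested.

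**Figure D3:**
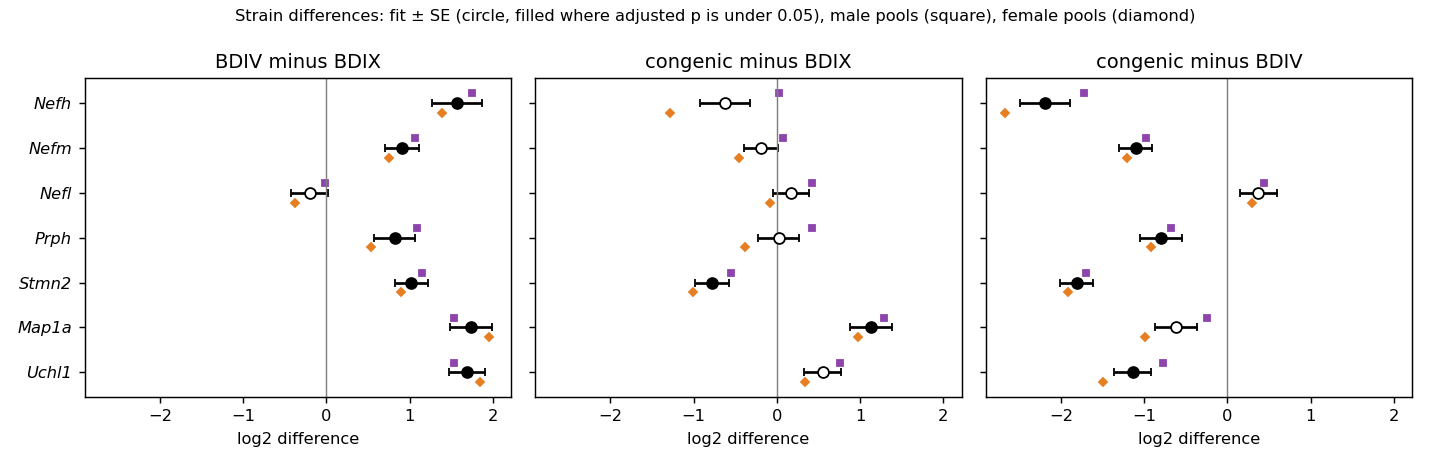
Log2 differences (x axis) of the 7 members (y axis) for the 3 strain comparisons. Circles are fitted differences with SE bars, filled where the adjusted p is under 0.05, squares are male pools and diamonds female pools. For congenic minus BDIX the Nefh male pools differ by 0.03 and the female pools by -1.28.

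Set against BDIV, the strain that gave the segment, the congenic had 5 of the 7 members lower and 0 higher, with a median of -1.10 against -0.02 over all probes. Of all probes 36.9% were called in this comparison, 18.8% as lower and 18.1% as higher. It shares the BDIV pools with the comparison of BDIV and BDIX and is not independent of it. Nefh had a difference of -2.19 ± 0.30 (limma adjusted p = 0.00334), or 4.58-fold, and Stmn2 of -1.81 ± 0.20 (adjusted p = 0.00202), or 3.49-fold. Uchl1 differed by -1.14 ± 0.22 (adjusted p = 0.00871), Nefm by -1.10 ± 0.20 (adjusted p = 0.00685) and Prph by -0.80 ± 0.25 (adjusted p = 0.0405). Map1a (-0.62 ± 0.25, adjusted p = 0.0917) and Nefl (0.37 ± 0.22, adjusted p = 0.229) were not called, although the pools of the 2 strains did not overlap for any of the 7 members. Of all probes 39.8% lay lower and 39.2% higher without overlap.

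Leaving out an array moved the counts of members and of all probes called. Each such fit leaves 1 strain with a single pool, so only the differences are given. They ran from -2.75 to -1.62 for Nefh, -1.94 to -1.61 for Stmn2 and -1.42 to -0.85 for Uchl1. Nefm ran from -1.29 to -0.90, Prph from -0.99 to -0.48, Map1a from -0.89 to -0.33 and Nefl from 0.17 to 0.48. Prph was not called in any fit without a congenic or a BDIV array, and Nefm and Uchl1 were not called in some. In the authors' processed values Prph had a difference of 0.01 (adjusted p = 0.972) and Nefl was higher by 1.56 (adjusted p = 0.0154). Prph was also lost under cyclic loess (-0.40, adjusted p = 0.251) and with all probes tested (adjusted p = 0.0759). Nefl was also called higher under cyclic loess (1.11, adjusted p = 0.0154), and Map1a was called lower under median scaling (-1.44, adjusted p = 0.00232) and cyclic loess (-0.74, adjusted p = 0.0476).

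Other neuronal genes were also mostly lower in the congenic than in BDIV, in a comparison where 18.8% of all probes were called lower. Their lists were chosen with earlier results of these data known. Of 18 axonal cytoskeleton genes 12 were lower and 0 higher (median -1.06), of 18 neuronal markers 11 were lower and 0 higher (median -0.75), and of 8 cell body genes 4 were lower and 0 higher (median -0.64). Stmn3 differed by -1.48 ± 0.20 (limma adjusted p = 0.00324) and Sncg by -0.93 ± 0.21 (adjusted p = 0.0159), whereas Gap43 had -0.16 ± 0.21 (adjusted p = 0.582). Cdk5 differed by -1.21 ± 0.18 (adjusted p = 0.00423). Of the myelinating Schwann cell genes 3 of 10 were higher and 1 lower, and of the erythrocyte genes 7 of 7 were higher, beside which the members' values stand without a test of their part. Without the BDIV female array the counts of the 3 neuronal lists were 5, 4 and 1, and without the congenic female array 7, 6 and 1. They were 7, 6 and 3 without the BDIV male and 11, 7 and 3 without the congenic male array.

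**Figure D4:**
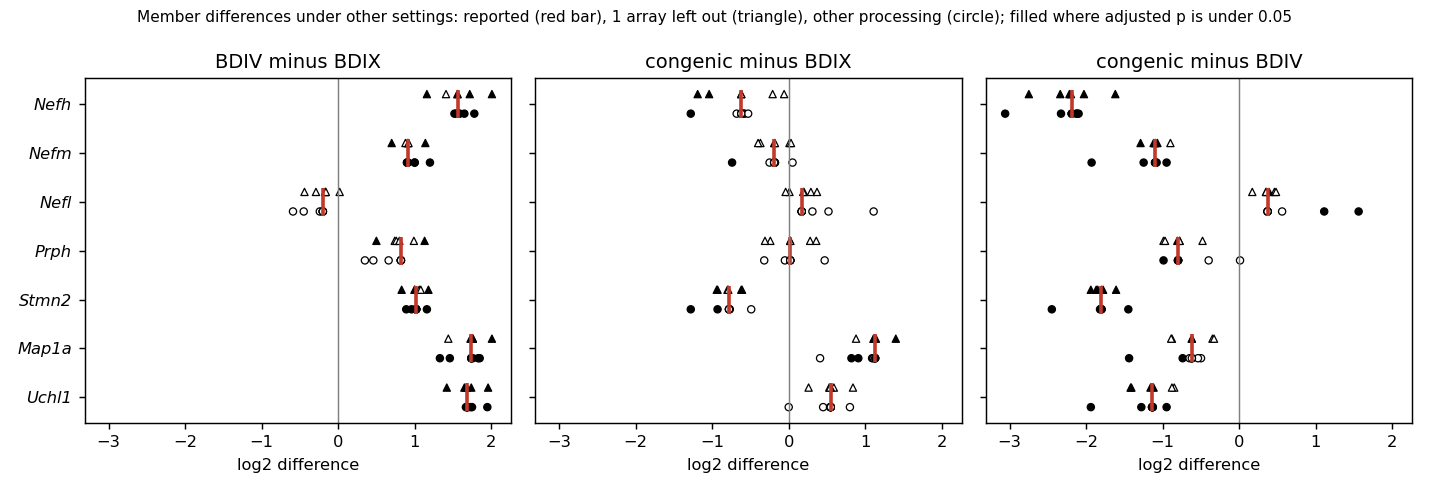
Log2 difference (x axis) of each member (y axis) in the 3 strain comparisons under every setting tried. Red bars are the reported values, triangles leave out 1 array, circles change another processing step, and filled symbols have an adjusted p under 0.05. Nefh, Nefm, Prph, Stmn2, Map1a and Uchl1 stay above 0 in BDIV minus BDIX under all settings. In congenic minus BDIV, Prph reaches 0.01 in the authors' processed values.

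Between male and female pools 0 of the 7 members were called, and 0 of them had an unadjusted p under 0.05. Of all probes 0% were called by limma, with 315 at an unadjusted p under 0.05. The largest member difference was that of Nefh (0.44 ± 0.25, male minus female, adjusted p = 0.959). Within strains the male pool exceeded the female pool in all 7 members in the congenic, by 0.12 (Nefl) to 1.20 (Nefh). In BDIX it was lower in 5 of 7, with -0.38 for Nefl and -0.35 for Prph, and higher for Map1a (0.34) and Uchl1 (0.27). In BDIV the gaps stayed between -0.07 (Map1a) and 0.24 (Nefh). With 1 pool per strain and sex these gaps have no replicate and were not tested.

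Members differed in how alike their profiles were over the 6 arrays. After each gene was centred on its own mean, the root mean square difference between Nefm and Prph was 0.14 and that between Map1a and Uchl1 0.26, the 2 closest of 21 pairs, whereas Nefh and Nefl were farthest apart at 1.12. The mean centred profile of the 7 was -0.42 and -0.33 in BDIX, 0.74 and 0.67 in BDIV, and -0.07 and -0.60 in the congenic. Nefm (0.11) and Prph (0.15) lay closest to it and Nefl (0.65) and Nefh (0.51) farthest from it. Each member is 1 of the 7 averaged in this profile, so its distance is partly fixed in advance. Over all tested probes the median distance to this profile was 0.63, which for that reason is no yardstick for the members. Of 7790 other named probes the 6 nearest were Etfbkmt (0.07), a mitochondrial methyltransferase gene, Ntng1 (0.08), which encodes the axonal protein netrin-G1, Lurap1l (0.09), Snrpn (0.09), a spliceosomal protein gene active in neurons, Ttc9 (0.09) and Med9 (0.09), a Mediator subunit gene. Ntng1 read 8.29 and 8.27 in BDIX, 9.46 and 9.27 in BDIV, and 8.73 and 8.17 in the congenic. Likeness over 6 arrays is a description and says nothing of shared function.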

How the data were processed

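Pooled nerves gave Trizol-extracted RNA and biotinylated cRNA, per the labels' protocols, and the submitters' processing notes name BeadStudio 3.0. The authors deposited, per the file headers, an average signal intensity and a detection p-value for each probe and array, on a linear scale without background subtraction (lowest signal 39 to 56.9). They also deposited processed intensity values, which on each array were a linear function of the signal (slopes 0.326 to 0.993, for a reason that the sources used here do not state). Among the 21791 probes, 242 lay off this straight line on some array and were left out.

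The background mean (57.9 to 84.7) and SD of each array were derived from the detection p-values, and a normal-exponential model was applied. The corrected intensities, raised by 16, were quantile normalised and converted to log2. The 10484 probes detected (p under 0.01) on 2 or more of the 6 arrays were fitted with limma 3.58.1 in R 4.3.3, with strain and sex as terms, an intensity trend, 2 residual and 5.23 prior degrees of freedom, and Benjamini-Hochberg adjustment over all of them. The limma fit alone was run on simulated log2 values with planted differences and the same SD for every probe. Background correction, normalisation and the detection filter were not part of that simulation. Groups came from the sample titles. The number of arrays limits the precision. Alternatives covered scaling, background, offset, filters, the authors' values, the trend and each array left out.

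Gene names came from the platform annotation, which gave 13387 probes 1 symbol and 8404 none. A list gene was read from its brightest tested probe, and up to 3 genes per list were named by mean intensity. The members and the lists were chosen with earlier results of these data known. Strain differences in the sequences that the probes bind were not analysed here.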

Additional observations from a re-analysis of the deposited data

Results flagged for a closer look

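In 4 members the difference between the congenic and BDIX had opposite signs in the male and the female pools. These were Nefh (0.03 in males and -1.28 in females), Nefm (0.08 and -0.45), Nefl (0.42 and -0.08) and Prph (0.42 and -0.38). The 4 are the intermediate filament genes of the set. Each value compares a single pool with a single pool, and the difference between the sexes was not tested.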

How the results depend on the processing

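Between BDIV and BDIX the count of members called stayed within 1.5 times 6 under each other processing and ran from 1 to 6 when an array was left out, while all probes called ran from 486 to 4279 against 2865. Between the congenic and BDIX, 2 members and 1244 probes were called. With all probes tested these counts were 0 and 688, with the authors' processed values 0 and 722, without an intensity trend 1 member, under median scaling 4342 probes, and with an array left out 1 to 3 members and 741 to 2996 probes. Between the congenic and BDIV, 5 members and 3870 probes were called, against 5917 probes under median scaling and 2 to 7 members and 1191 to 5791 probes with an array left out. Median scaling moved the median of all probes to -0.52 in the former and -0.64 in the latter, and the share of calls that were higher from 36.2% to 2.4% and from 49% to 8.4%. For BDIV against BDIX that share went from 50.1% to 62.9%. For sex, 0 to 19 probes were called with an array left out.

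Of the members' differences that changed sign 1 was called, that of Prph between the congenic and BDIV. For the congenic against BDIX, Prph was -0.32 under median scaling, -0.05 under cyclic loess and -0.31 to 0.36 with an array left out, Nefm was 0.05 in the authors' values and -0.40 to 0.03 with an array left out, and Nefl was -0.04 to 0.37. For the congenic against BDIV, that of Prph went from -0.80 to 0.01 in the authors' values. Nefl against BDIX in BDIV was -0.44 to 0.02. For sex, Nefl was 0.05 under median scaling, 0.04 in the authors' values and -0.17 to 0.06 with an array left out, Stmn2 was 0.03, 0.03 and -0.17 to 0.06, and Prph was -0.09 to 0.33. The cause of these changes was not tested. With an array left out, the lone pool of its strain is assumed to vary like the others. On the BDIV arrays the signals of Nefl, Prph and Stmn2 were at 75.0% to 91.1% of the highest signal. Whether this limits their differences was not tested.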

Other observations

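The brain neuron genes that were detected moved in different directions. Gad1, which makes the transmitter GABA, read 8.71 and 8.13 in the BDIX male and female pools, 7.45 and 7.22 in BDIV, and 9.38 and 9.67 in the congenic. It was lower in BDIV than in BDIX (-1.08 ± 0.25, limma adjusted p = 0.021) and higher in the congenic (1.11 ± 0.25, adjusted p = 0.0384). Slc17a7, a vesicular glutamate transporter gene, was highest in BDIV, with 5.07 and 5.43 in BDIX, 6.67 and 6.83 in BDIV, and 5.80 and 5.43 in the congenic, and was detected on 2 arrays. Nrgn, a calmodulin-binding protein gene of neurons, was higher than in BDIX in both BDIV (0.93 ± 0.27, adjusted p = 0.0427) and the congenic (1.25 ± 0.27, adjusted p = 0.0348). Fabp7, a fatty acid binding protein of satellite glia, was also higher in both, by 1.83 ± 0.51 (adjusted p = 0.036) in BDIV and 1.97 ± 0.51 (adjusted p = 0.0486) in the congenic, while Apoe of the same list was 0.58 ± 0.23 in BDIV (adjusted p = 0.0965) and -0.87 ± 0.23 in the congenic (adjusted p = 0.0498).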
